A study of Mus musculus with 6 samples.

Results

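Transcripts of the GABA, glycine, kainate, metabotropic glutamate, acetylcholine, serotonin and adrenergic receptors were examined in the dentate gyrus (DG) and CA1 of the adult mouse hippocampus. The genes were chosen by a rule on their names, which was set with earlier results of these data known. The rule found 35 of the 7507 genes listed. They were 9 GABA-A, 2 GABA-B, 2 glycine, 5 metabotropic glutamate (mGluR) and 3 kainate receptor genes. The others were 4 muscarinic, 1 nicotinic, 5 adrenergic and 4 serotonin receptor genes. The libraries were made by BALI-Multiome, in which light uncages ligation sites in chosen areas of a tissue section so that the cDNA made in each area carries its own barcode. In each of 3 sections of fresh frozen brain, 10 μm thick, the DG and the CA1 area were barcoded. This gave 3 DG and 3 CA1 libraries paired by section. The paper proposes that some of the hilus may lie in its DG area. The labels used here give no genotype, strain or treatment, and by them the groups differ by region. By the protocol DG was lit and ligated before CA1, each with its own index. Effects of region, index and order therefore cannot be told apart. They give an age of 12 weeks while the protocol text gives 8 to 12 months, and the chromatin side of the experiment was left out here. The labels do not say whether the 3 sections came from separate animals, so the p-values below measure only the spread between these libraries, which may be technical. Each library pools all cells of a lit area, so that fewer cells of a type and less RNA per cell cannot be told apart.

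The DG is packed with granule cells, and CA1 with pyramidal cells, and local interneurons release GABA onto both. GABA-A and glycine receptors are chloride channels built from several subunits around a pore, and they carry fast inhibition. GABA-B receptors, the mGluRs, the muscarinic and adrenergic receptors and most serotonin receptors signal through G proteins and act more slowly, whereas kainate and nicotinic receptors are cation channels. Acetylcholine, noradrenaline and serotonin reach the hippocampus through long axons from the basal forebrain and the brainstem.

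A UMI is a random tag that marks 1 cDNA molecule, and UMIs here are the deposited counts less the 1 that had been added to every gene. Depth was 17999, 4572 and 6298 UMIs for sections 1, 2 and 3 in DG and 9357, 2844 and 4865 in CA1, and DG held 62.8% of all UMIs. A count of 0 allowed a level of up to 3 UMIs, that is between 166.7 CPM in the deepest library and 1055 CPM in the shallowest (CPM, the UMIs of a gene over those of its library, scaled to 1000000), and these limits and the intervals of shares and pooled ratios below cover counting error only. Of the DG granule cell markers only Calb1 and Synpr were listed, with 5, 0 and 1 UMIs in DG and 1, 1 and 0 in CA1, and Prox1, C1ql2 and Dsp were outside the genes listed. The 5 CA1 pyramidal markers had 4, 2 and 2 UMIs in DG and 9, 0 and 2 in CA1, so this check of the regional labels rests on few molecules. The 5 listed interneuron markers (Gad1, Gad2, Sst, Pvalb and Npy) made up between 0.0219% and 0.0635% of the UMIs in DG and between 0 and 0.0822% in CA1. All 5 general neuron markers (Snap25, Rbfox3, Syt1, Camk2a and Nrgn) were listed and had a UMI in every library. Their summed share was lower in each DG library (0.730% to 0.878%) than in any CA1 library (0.908% to 1.34%). Taken alone, each of the 5 overlapped between the regions in its share. Camk2a had 62, 18 and 14 UMIs in DG and 34, 21 and 20 in CA1. Snap25 had 6, 2 and 6 against 7, 1 and 4. Of the 999 single genes with at least 10 UMIs, 5.11% had every DG share below every CA1 share. The 5 of 6 oligodendrocyte markers listed held 0.481% to 0.783% of the UMIs in DG and 0.668% to 0.994% in CA1, and the 3 of 6 astrocyte markers listed 0.156% to 0.238% and 0.139% to 0.247%, so these ranges overlapped. The part of any of these cell types in the receptor counts was not tested.

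The 35 receptor genes held 237 UMIs in all, 0.516% of the total, of which 163 (68.8%) were in DG and 74 in CA1. In DG they had 104, 17 and 42 UMIs in sections 1, 2 and 3, or 0.578%, 0.372% and 0.667% of the library. In CA1 they had 41, 12 and 21 UMIs, or 0.438%, 0.422% and 0.432%. The CA1 shares lay close together while those of DG spread around them, with 2 above and 1 below all CA1 shares. Their Clopper-Pearson intervals were wide, at 0.315% to 0.594%, 0.218% to 0.736% and 0.267% to 0.659% in CA1. In DG they were 0.472% to 0.700%, 0.217% to 0.595% and 0.481% to 0.900%. Counting error alone thus allowed a far larger spread in CA1 than was seen. The small CA1 spread is therefore no sign that its share was known more exactly or was more even. The mean share was 0.539% ± 0.151 in DG and 0.431% ± 0.00817 in CA1 (SD, n = 3), a mean log2 ratio within sections of 0.28 ± 0.42, so the difference was within the spread between sections. Without section 2 the mean log2 ratio was 0.51 and without section 3 it was 0.11.

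Few receptors were counted often. Of the 35 genes, 8 had at least 10 UMIs over the 6 libraries (22.9%, against 13.3% of all genes listed). A UMI in every library was found for 3 (8.57%, against 5.25%), and 9 had a single UMI (25.7%, against 32.7%). The number of receptor genes with a UMI was 24, 8 and 20 in DG and 16, 10 and 11 in CA1, and the DG library of section 2 had the fewest although the CA1 library of that section was shallower. After thinning every library to 2844 UMIs the medians were 11, 6 and 12.5 genes in DG and 8.5, 10 and 8.5 in CA1, so that the DG libraries of sections 1 and 3 remained above all CA1 libraries and that of section 2 below them. The same count over all genes was not made after thinning. Among the 27 genes under 10 UMIs, 12 were counted in DG alone and 5 in CA1 alone (44.4% and 18.5%), against 40.5% and 19.3% of all genes under 10 UMIs, so these shares were close to the background.

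**Figure D1:**
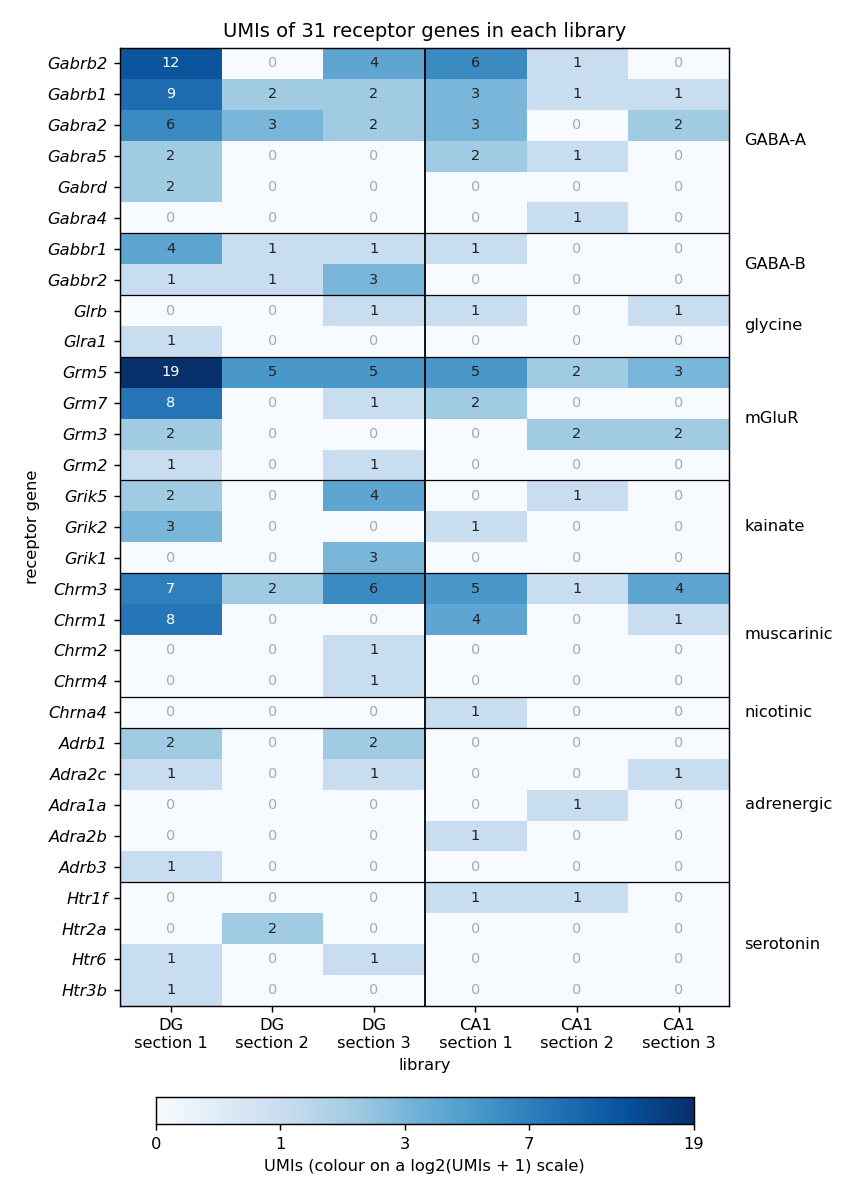
UMIs of 31 of the 35 receptor genes (rows, grouped by receptor class) in the 6 libraries (columns, 3 DG and 3 CA1 sections), with the count printed in each cell and the colour on a log2(UMIs + 1) scale. Counts are highest in the deepest library, the DG of section 1, where Grm5 reaches 19, and Grm5, Chrm3 and Gabrb1 have a UMI in every library.

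GABA-A receptor subunits held 78 UMIs, 32.9% of those of all receptors examined, and were the most counted class. The β subunits help to form the GABA binding site with an α subunit, and the α subunits set much of a receptor's drug sensitivity. Gabrb2 (β2; chromosome 11, 42419515 to 42632591, forward strand of mm10) had 12, 0 and 4 UMIs in DG and 6, 1 and 0 in CA1. The groups overlapped, with a 0 in both regions, and the mean level was 434 ± 376 CPM in DG and 331 ± 321 in CA1. Gabrb1 (β1; chromosome 5, 71657921 to 72149572, forward strand) had 9, 2 and 2 UMIs in DG and 3, 1 and 1 in CA1. Its DG level was above its CA1 level in every section, at 418 ± 92.7 against 293 ± 77.0 CPM, but the lowest DG library lay below the highest CA1 libraries. Gabra2 (α2; chromosome 5, 70958392 to 71095849, reverse strand), an α subunit common in forebrain synapses, had 6, 3 and 2 UMIs in DG and 3, 0 and 2 in CA1, and its groups overlapped as well.

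Other GABA-A genes were counted less often. Gabra5 (α5), known for tonic inhibition in CA1 pyramidal cells, had 2, 0 and 0 UMIs in DG and 2, 1 and 0 in CA1. Gabrd (δ), the subunit of extrasynaptic receptors for which granule cells are known, had 2 UMIs, both in the DG library of section 1. Gabra4 (α4) had 1 UMI, in the CA1 of section 2. Each of these genes was at or under 3 UMIs in every library, so a regional difference was not detectable at this depth. Of the 19 GABA-A subunit names in the annotation, 10 were outside the genes listed.

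As a class, the GABA-A subunits made up 0.194%, 0.109% and 0.159% of the UMIs in DG and 0.182%, 0.141% and 0.144% in CA1. The mean log2 ratio within sections was -0.04 ± 0.28 (SD, n = 3), with DG above in sections 1 and 3 and below in section 2. Pooled over sections the DG share was 1.06 times that of CA1, with an exact interval from 0.652 to 1.74, which leaves room for a difference of either sign.

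Both GABA-B genes were listed. Gabbr1, which encodes the subunit that binds GABA, had 4, 1 and 1 UMIs in DG and 1, 0 and 0 in CA1. Gabbr2, whose product couples to the G protein and brings the dimer to the cell surface, had 1, 1 and 3 UMIs in DG and 0 in all CA1 libraries. The 2 genes together made up 0.0278%, 0.0437% and 0.0635% of the UMIs in DG and 0.0107%, 0 and 0 in CA1, so the 3 DG shares lay above the 3 CA1 shares. Such a lack of overlap, with DG higher, was found for 7.11% of the 999 genes with at least 10 UMIs. Those are single genes, while this is a sum of 2 genes with 7 and 5 UMIs, so the 7.11% is not a like background. The CA1 library was also the shallower in each section. From 11 against 1 UMIs, the pooled DG share was 6.50 times that of CA1 with an exact interval from 0.945 to 279.9. The glycine receptor genes Glrb (β) and Glra1 (α1) had 3 UMIs and 1 UMI, 2 in each region together.

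The mGluRs held 71 UMIs (30.0% of those of the receptors). Group I members couple to Gq and phospholipase C and sit mainly around the postsynaptic density. The group I receptor Grm5 (mGluR5; chromosome 7, 87583981 to 88135063, forward strand) was the most counted gene of all 35, with 19, 5 and 5 UMIs in DG and 5, 2 and 3 in CA1. These are levels of 1056, 1094 and 793.9 CPM in DG and 534 to 703 CPM in CA1, so the groups did not overlap. The gap is small in molecules. In the CA1 library of section 2, 1 UMI was 351.6 CPM, more than the gap between its 703 CPM and the 793.9 CPM of DG. The mean was 981 ± 163 CPM in DG and 618 ± 84.4 in CA1 (SD, n = 3). The CA1 levels rest on 5 UMIs or fewer in each library, so their small SD is no sign of a level known exactly. Grm5 was the only one of the 8 receptors with at least 10 UMIs whose DG levels all lay above its CA1 levels (12.5%), against 7.11% of the 999 genes of that depth, and 0 of 8 had all DG levels below, against 5.11%. The summed share of the 5 neuron markers lay the other way, with every DG share below every CA1 share. Each of these markers alone overlapped between the regions, and their part in the Grm5 levels was not tested.

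Grm7 (mGluR7; chromosome 6, 110645349 to 111567230, forward strand), a group III receptor of presynaptic active zones, had 8, 0 and 1 UMIs in DG and 2, 0 and 0 in CA1, so that 8 of its 11 UMIs came from 1 library. Of the group II receptors, which lower cyclic AMP, Grm3 (mGluR3, also found in astrocytes) had 2, 0 and 0 UMIs in DG and 0, 2 and 2 in CA1, and Grm2 had 1, 0 and 1 in DG and 0 in CA1. The mGluR share was 0.206%, 0.131% and 0.127% in DG and 0.0962%, 0.141% and 0.144% in CA1. The DG share was above that of CA1 in section 1 alone, the mean log2 ratio was 0.27 ± 0.71, and without section 1 it was -0.14. Without Grm5 it was -0.42.

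The kainate receptor genes had 14 UMIs, 12 of them in DG. Grik5, which encodes the high-affinity GluK5 subunit, had 2, 0 and 4 UMIs in DG and 0, 1 and 0 in CA1. Grik2 (GluK2), a subunit that can form a channel alone, had 3, 0 and 0 against 1, 0 and 0, and Grik1 (GluK1) had 3 UMIs, all in the DG of section 3. The class made up 0.0278%, 0 and 0.111% of the DG libraries and 0.0107%, 0.0352% and 0 of the CA1 libraries, so the groups overlapped. The pooled ratio, from 12 against 2 UMIs, was 3.55 with an exact interval from 0.790 to 32.6. Grik3 and Grik4 were outside the genes listed, as were both genes of the delta receptors.

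Muscarinic receptors held 40 UMIs. Chrm3 (M3; chromosome 13, 9875486 to 10361062, reverse strand), which couples to Gq, had 7, 2 and 6 UMIs in DG and 5, 1 and 4 in CA1, and was present in every library. Its mean level was 593 ± 312 CPM in DG and 569 ± 237 in CA1, and in both regions the library of section 3 was the highest. Chrm1 (M1; chromosome 19, 8664005 to 8683606, forward strand), the muscarinic receptor best known from hippocampal principal cells, had 8, 0 and 0 UMIs in DG and 4, 0 and 1 in CA1, so that 12 of its 13 UMIs came from section 1. The Gi/o-coupled Chrm2 and Chrm4 had 1 UMI each, both in the DG of section 3. The class share was 0.0833%, 0.0437% and 0.127% in DG and 0.0962%, 0.0352% and 0.103% in CA1, a mean log2 ratio of 0.14 ± 0.30, and the section with the lowest share was the same in both regions. Of the 16 nicotinic subunit names only Chrna4 was listed, with 1 UMI in the CA1 of section 1.

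Receptors for the monoamines were near the limit of detection. The 5 adrenergic genes had 4, 0 and 3 UMIs in DG and 1, 1 and 1 in CA1. Adrb1, the β1 receptor, had 2, 0 and 2 in DG and 0 in CA1, Adra2c had 1, 0 and 1 against 0, 0 and 1, and Adra1a, Adra2b and Adrb3 had 1 UMI each. The 4 serotonin receptor genes had 2, 2 and 1 UMIs in DG and 1, 1 and 0 in CA1. Htr1f, an inhibitory receptor, had its 2 UMIs in CA1, Htr2a, a Gq-coupled receptor, had 2 in the DG of section 2, Htr6, which raises cyclic AMP, had 1, 0 and 1 in DG, and Htr3b, a channel subunit, had 1. The 5 dopamine receptor names in the annotation were all outside the genes listed, so they were not analysed here. A regional difference in a monoamine receptor was not detectable at this depth.

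**Figure D2:**
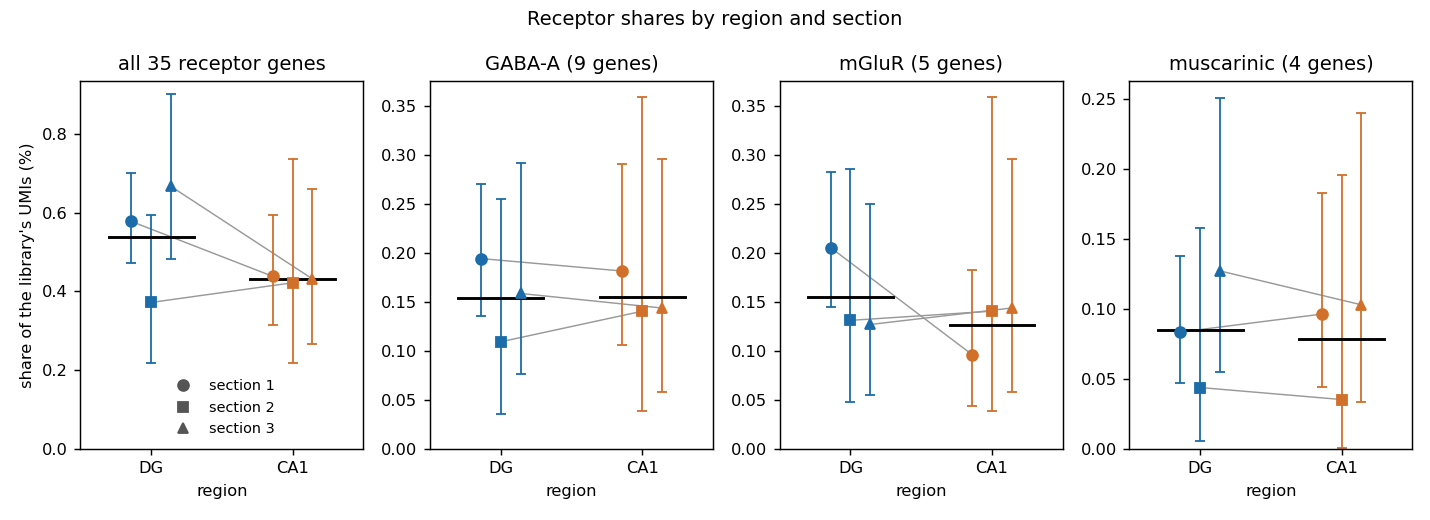
Share of each library's UMIs (%, y axis from 0, scaled separately in each panel) held by all 35 receptor genes and by the 3 classes with a UMI in every library, by region (x axis). Symbols are sections joined by grey lines, vertical bars are 95% Clopper-Pearson intervals and black bars are means (n = 3); the share of all receptors is above that of CA1 in sections 1 and 3 and below it in section 2, and the intervals of DG and CA1 overlap in every panel.

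Grouped by the signal they start, a grouping chosen after the counts were seen, the Gq-coupled receptors (Grm5, Chrm3 and Chrm1 among them) held the most UMIs, 93 of 237, and 63 of these were in DG. Their share was 0.228%, 0.219% and 0.191% in DG and 0.171%, 0.141% and 0.206% in CA1, a mean log2 ratio of 0.31 ± 0.38. The chloride channels held 82 UMIs with a mean log2 ratio of -0.07 ± 0.25, and the Gi/o-coupled receptors held 39 with 0.25 ± 1.33. The cation channels held 16 UMIs, 13 of them in DG. The Gs-coupled receptors (Adrb1, Adrb3 and Htr6) had 4, 0 and 3 UMIs in DG and 0 in each CA1 library. The DG of section 2 was at 0 too, and a regional difference was not detectable from these counts.

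The regions were compared gene by gene with edgeR's quasi-likelihood test across the 999 genes with at least 10 UMIs, with Benjamini-Hochberg adjustment. No gene passed an adjusted p of 0.05 (0% of the 999), 52 (5.21%) had an unadjusted p under 0.05, and the smallest adjusted p was 0.122. None of the 8 receptors tested had an unadjusted p under 0.05, and the adjusted p of each was 1.00. DESeq2 called 0 genes too, with 17 at an unadjusted p under 0.05. With the section as a block, edgeR called 1 of the 999 genes, and it was not a receptor. Without the filter all 35 receptors were tested and 0 were called.

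The log2 fold change of DG over CA1 in this edgeR fit was 0.78 for Grm5 (SE 0.61, 95% interval -0.42 to 1.98), so that neither equal levels nor a DG level several times higher lay outside the interval. For Gabrb1 it was 0.62 (SE 0.87), for Gabra2 0.46 (SE 0.90) and for Gabrb2 0.44 (SE 0.78). The estimate of Grm7 was the highest, 1.25 (SE 1.20), and was -0.21 without DG replicate 1, the library that held most of its UMIs. Chrm3 and Chrm1 were at -0.04 (SE 0.70) and -0.12 (SE 1.03). Without DG replicate 1, Chrm1 was at -3.73, but the DG libraries left held 0 of its UMIs. The size of that estimate thus has no observed DG level behind it. Without CA1 replicate 1, Chrm1 was at 1.03. Of the 8 receptors 6 had an estimate above 0, with a median of 0.45, while 54.5% of all 999 genes did, with a median of 0.08. Counted by section, Grm5 and Gabrb1 had the higher DG level in 3 of 3 sections, 2 of 8 against 13.8% of the 999 genes, and 0 of 8 had the lower DG level in 3 of 3, against 11.8%.

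**Figure D3:**
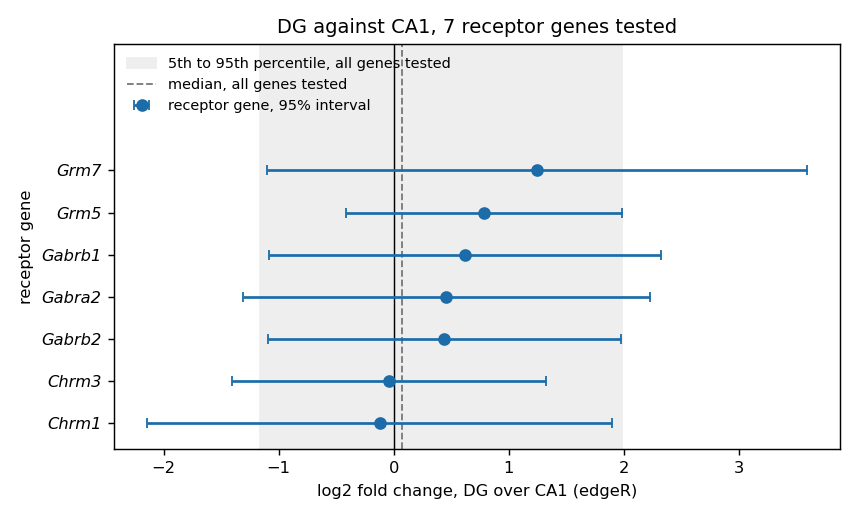
Log2 fold change of DG over CA1 from edgeR (x axis) for 7 of the 8 receptor genes with at least 10 UMIs (y axis), as points with 95% intervals. The grey band spans the 5th to 95th percentile of the 999 genes tested (-1.16 to 1.98) and the dashed line is their median; the interval of every receptor drawn includes 0.

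Genes that supply, anchor or transduce the signals of these receptors were taken from a list of partners by function. Of the proteins that make, take up or break down GABA 5 of 8 were listed, with 14 UMIs in all. Of the inhibitory postsynapse and GABA-A assembly genes 13 of 15 were listed, with 62 UMIs, and only Gabarapl1, a relative of the GABA-A receptor trafficking protein Gabarap, reached 10. Slc12a5, the potassium-chloride cotransporter that keeps chloride low in mature neurons and so makes GABA-A currents inhibitory, had 8, 0 and 5 UMIs in DG and 1, 0 and 0 in CA1. Its log2 fold change was 2.68 (SE 1.25) with an unadjusted p of 0.0316 and an edgeR adjusted p of 0.880, and the DG library of section 2 was at 0 like 2 of the CA1 libraries.

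The partners and effectors of the mGluRs were better covered, with 10 of 11 listed, 7 at 10 UMIs or more and 167 UMIs in all. Gnaq, the Gq α subunit itself, had 26, 3 and 8 UMIs in DG and 7, 3 and 4 in CA1, a log2 fold change of 0.61 (SE 0.52) in the edgeR fit. Homer1, a scaffold that binds mGluR5, had 9, 2 and 2 in DG and 8, 1 and 0 in CA1, with -0.13 (SE 0.76). Homer2, of the same scaffold family, had 3, 2 and 1 against 8, 1 and 3, with -1.55 (SE 0.83). Of the 2 listed kainate partners Neto1 had 1 UMI and C1ql3 had 2. Among the genes of monoamine and acetylcholine supply, 4 of 14 were listed. Of the 15 partners tested, AMPA and NMDA subunits included, 0 passed an adjusted p of 0.05 by edgeR, against 0% of the 999 genes, and 1 of 15, Slc12a5, had an unadjusted p under 0.05, against 5.21%.

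The AMPA and NMDA receptor subunits, which carry fast excitation, were counted for scale. The 9 listed subunits held 694 UMIs, more than all 35 receptors examined here, and Grin2b and Gria2 held 320 and 208 of them. For every 100 AMPA and NMDA UMIs there were 36.5, 21.3 and 41.6 UMIs of the other receptors in DG and 30.4, 40.0 and 33.3 in CA1. The mean log2 ratio of DG over CA1 in this measure was -0.11 ± 0.70, with DG above in sections 1 and 3 and below in section 2. The 2 regions thus did not differ beyond the spread in this measure. It divides by a sum that was itself higher in DG. The AMPA and NMDA subunits held 1.58% to 1.75% of the UMIs in the DG libraries and 1.05% to 1.44% in the CA1 libraries. These shares did not overlap, as for Grm5, and their mean log2 ratio was 0.39 ± 0.31. No test was made of this sum of 9 genes.

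Counts of different genes were also divided by kilobases of exon. Exons were as annotated by RefSeq on GRCm38.p6, which underlies mm10, where all 35 genes were found. By the protocol cDNA was primed at the poly-A tail and each molecule gets 1 UMI, so counts need not grow with exonic length. Values per kilobase may thus set long genes too low and short genes too high. By UMIs alone Grm5 ranked 1, Chrm3 2 and Gabrb1 4. Chrm3 ranked first with 7.89 UMIs per kilobase, from a short exonic length of 3.17 kb. Grm5 was the second with 4.58, followed by Gabra2 (3.16), Gabrb2 (2.79) and Grm7 (2.52), while Gabrb1, the longest at 14.6 kb of exon, had 1.24 and ranked 14. Exonic length and UMIs went together among the 35 genes (Spearman's rho 0.59 across genes, which are not replicates), and the same value over the 7155 listed genes with an annotation was 0.24. The receptor genes were long, with a median span of 90.7 kb against 29.8 kb. Exons of 5 receptor genes overlapped those of a neighbour, by 238 bases between Gabrb1 and Gabra4, 148 between Gabra5 and Gm9962, 79 between Chrm2 and 9330158H04Rik and 25 between Chrm4 and Mdk. Reads there cannot be told apart by strand in the authors' counting, so the counts of these genes are uncertain to that extent.

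**Figure D4:**
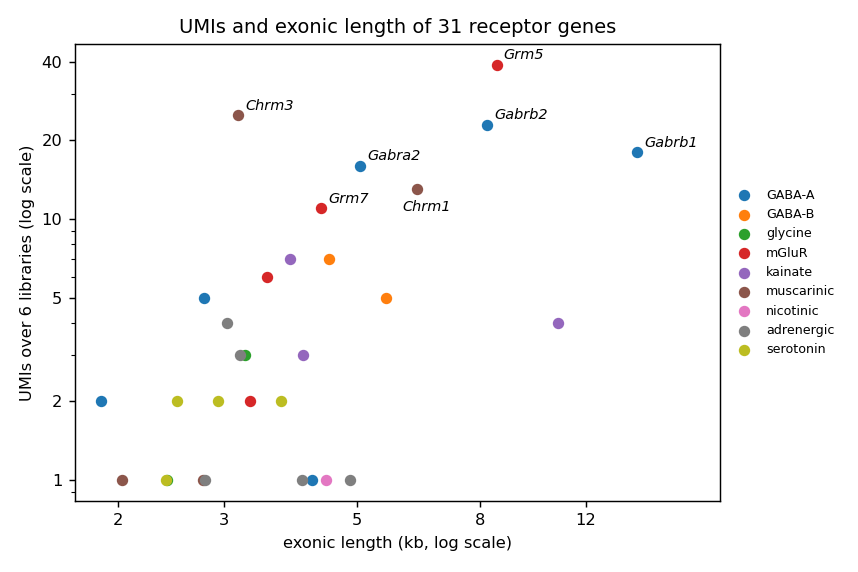
UMIs over the 6 libraries (y axis, log scale) against exonic length in kilobases (x axis, log scale) for 31 of the 35 receptor genes, coloured by class, with 7 genes of at least 10 UMIs named. Chrm3 has 25 UMIs at 3.17 kb and lies above genes of like length, and Gabrb1, with the longest exons in all, has 18.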

How the data were processed

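RNA of DG and CA1 of 3 sections was analysed. The authors extracted 6-base UMIs with UMI-tools, assigned reads to regions by their whole or partial barcode (cutadapt 4.1), mapped read 1 to mm10 with STAR 2.7.9a, assigned reads to genes with featureCounts (Subread 2.0.3) under default options, which ignore strand and leave out reads over several genes, and counted UMIs per gene. The deposited counts have 1 added to every gene in every library; it was subtracted here, and a line of totals was left out. Deposited CPM, means, SDs, folds and log10 ratios, made by the authors, were not used. Libraries were matched through the labels.

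DG and CA1 were compared with edgeR 4.0.16 (quasi-likelihood, TMM, at least 10 UMIs summed, unblocked, Benjamini-Hochberg, threshold 0.05; R 4.3.3). DESeq2 1.42.0, other size factors and filters, section as a block, the counts as deposited, thinning to 2844 UMIs (median of 20 draws) and leaving out each section or library were alternatives. Simulated counts with 200 genes changed and 1 dispersion for all genes were used to test the edgeR script. Of the changed genes tested it recovered 5.25% at 2-fold, 35.4% at 4-fold and 72.0% at 8-fold. A gene that was not called may therefore still differ. Shares were compared within sections as log2 ratios, with no test; intervals are 95% Clopper-Pearson, and the intervals of pooled ratios are exact and conditional on the summed counts. CPM values were recomputed from the UMIs.

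Section numbers pair the libraries, since DG and CA1 were lit in 1 piece of tissue. Deviations from the region means correlated at 0.154, 0.0414 and 0.0724 over 999 genes on a log2 scale. Section 1 was the deepest and section 2 the shallowest in both regions, and shared counts of 0 from depth may enter these values. They are therefore no test of the pairing. Depth was 2844 to 17999 UMIs, so 1 UMI was 55.6 to 351.6 CPM. Named genes were all receptor genes with at least 10 UMIs, the most counted of each other class with the others given by counts, and, of the partners with at least 10 UMIs, up to 2 of each group; the other receptors named and Homer2, Neto1 and C1ql3 were chosen after their values were seen. Values of 4 receptors and of 1 partner are not reported here, but all genes entered the fits and class sums. Receptors and lists were chosen with earlier results of these data known.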

Additional observations from a re-analysis of the deposited data

How the results depend on the processing

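Across 19 alternatives the number of genes called between DG and CA1 was 0, except that it was 1 with at least 20 UMIs (361 genes tested), 1 with the replicate block and 1 with no filter and the replicate block; the gene was Prkce each time, and the cause was not tested. No receptor was called in any of them, and the lowest adjusted p of the 7 receptors named over all alternatives was 0.659. The blocked fit changed no other call. Leaving out a library or section gave 0 genes in each case. The filter of filterByExpr left 43 genes and 0 receptors.

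The share of all receptors (mean log2 ratio 0.28) ranged from 0.11 to 0.51 over 9 alternatives, GABA-A from -0.14 to 0.12, mGluR from -0.42 to 0.59 and muscarinic from -0.02 to 0.39 over 8, each within 1 SD between sections of its value. The muscarinic share without Chrm3 could not be had, since 2 of 6 libraries then held 0 UMIs. Thinning left 18, 17 and 16 of 20 draws usable for GABA-A, mGluR and muscarinic.

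Of 122 refits of the 7 receptors named 104 kept the sign, all of them for Grm5 and Gabrb1 (0.47 to 0.96 and 0.37 to 0.91). With libraries left out Gabrb2 ranged from -0.12 to 2.06, Gabra2 from -0.10 to 1.04 and Grm7 from -0.21 to 4.17. The 4.17 came without CA1 replicate 1, where the CA1 libraries left held 0 UMIs of Grm7. Chrm3 was at 0.13 with no filter, 0.12 with no filter and the replicate block, 0.023 by DESeq2, 0.13 when thinned and between -0.48 and 0.44 with libraries left out. Chrm1 was at 0.058 with no filter and between -3.73 and 1.03 with libraries left out. At -3.73 the DG libraries left held 0 UMIs of Chrm1. Without the filter the median of all genes moved from 0.08 to 0.46, and that of the receptors, now 35, from 0.45 to 0.78. At 2844 to 17999 UMIs a library, receptors under about 3 UMIs in a library could not be compared.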

Other observations

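GABA-A subunit genes lie in clusters in the genome. The cluster on chromosome 5 of mm10, 70958392 to 72149572, with Gabra2, Gabra4 and Gabrb1, held 35 UMIs, with 15, 5 and 4 in DG and 6, 2 and 3 in CA1. No test was made of this sum.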
